A study of Mus musculus with 11 samples.

Results

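The genes described here are 35 mouse genes for DNA and histone lysine methylation: DNA methyltransferases, histone lysine methyltransferases and the core partners they need. They were chosen by name from a list, with no cutoff on a measured value, though earlier results of these data were known. The genes were matched by symbol to the Ensembl identifiers of the deposited table. All 35 were found among its 55416 identifiers, and all 35 averaged 10 or more normalized counts over the libraries, the level from which a gene was tested, as did 12909 genes in all. By role they are 4 genes of DNA methylation (Dnmt1, Dnmt3a, Dnmt3b, Uhrf1), 7 of histone H3 lysine 9 (H3K9) methylation (Ehmt1, Ehmt2, Suv39h1, Suv39h2, Setdb1, Setdb2, Prdm2), and 4 of the core of Polycomb repressive complex 2 or PRC2 (Ezh1, Ezh2, Eed, Suz12). A further 10 belong to H3K4 methylation (Kmt2a, Kmt2b, Kmt2c, Kmt2d, Kmt2e, Setd1a, Setd1b, Setd7, Smyd2, Smyd3), 5 to H3K36 methylation (Setd2, Nsd1, Nsd2, Nsd3, Ash1l), and 5 to H4K20 and H3K79 methylation (Kmt5a, Kmt5b, Kmt5c, Smyd5, Dot1l).

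The libraries are polyadenylated RNA of EC4, a mouse liver cancer cell line, labelled MYC high (genotype MYC on) or MYC low (genotype MYC off). Cells of both states were kept for 24 h in DMEM with 10 µM or 200 µM methionine, and were grown in 200 µM methionine. The 11 libraries comprise 3 from MYC high cells in 10 µM methionine, 2 from MYC high cells in 200 µM (replicates 2 and 3), 3 from MYC low cells in 10 µM and 3 from MYC low cells in 200 µM. EC4 is 1 line, known as one from a mouse liver tumour with a doxycycline-repressible human MYC transgene, and how MYC was switched in these cultures is not given in the sources used here. Whether the replicates were grown as separate cultures is not stated, so the p-values reflect variation among libraries that could be technical only.

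Methionine is turned into S-adenosylmethionine, the methyl donor that the methyltransferases among these genes use and return as S-adenosylhomocysteine, a product that inhibits many of them. Uhrf1, Eed and Suz12 are partners that carry no methyltransferase activity of their own. No such activity is known for Kmt2e either, which is counted with the H3K4 genes. DNA methylation and H3K9 methylation mark repeats and silent genes, and PRC2 places H3K27 methylation on repressed developmental genes. H3K4, H3K36 and H3K79 methylation mark promoters, enhancers and transcribed gene bodies, and H4K20 methylation is tied to chromosome compaction and the cell cycle. The comparisons ask how the transcripts for these enzymes differed with MYC state and with the supply of their donor's precursor. They measure RNA, and neither protein nor methylation.

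Recovered reads numbered 10858936 to 13085689 per library, and 17395 to 18462 genes had a read. The mouse gene Myc had 2164 and 2014 normalized counts in MYC high cells at 200 µM, against 1106, 1133 and 1168 in MYC low cells at 200 µM, so there it followed the labels. At 10 µM it had 291, 366 and 350 in MYC high cells and 320, 344 and 342 in MYC low cells (log2 difference -0.005, 95% interval -0.132 to 0.122, limma adjusted p = 0.949). Myc itself was lower at 10 than at 200 µM in both states (log2 -2.64 in MYC high cells, -1.76 in MYC low cells), and its part in the methionine results was not tested. Directions between MYC states at 10 µM therefore rest on the labels, and how reads of a transgene would be counted is not given in the sources used here. Of 8 hepatocyte markers 1 reached a mean of 10 normalized counts, and 3 (Alb, Cyp3a11, Serpina1a) had 0 reads in every library. Of 4 fetal liver or liver tumour markers 1 reached that mean, and Igf2 and Gpc3 had 0 reads. Of 4 epithelial markers 2 reached it, the abundant keratins Krt8 and Krt18, and Epcam had 0 reads. Among 5 macrophage markers, Cd68 and Csf1r reached a mean of 10 and Ptprc, which marks all leukocytes, had 0 reads. None of 4 endothelial and none of 6 fibroblast markers reached it. In bulk RNA such as this, fewer cells of a type and less RNA per cell cannot be told apart.

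The promoters of 26 of the 35 genes were in the RefSeq table used (assembly GRCm38.p6, 250 bases before to 50 after each annotated start). Kmt2b, Smyd3, Nsd2, Prdm2, Setd1b, Nsd1, Ash1l, Nsd3 and Kmt2e were not matched. The 26 genes had 36 promoters, so a start given below need not be the only start of its gene. Counts per gene do not separate starts. The matched promoters were read for the E-box CACGTG, the DNA word MYC is best known to bind, and for 4 words known for E2F factors of the cell cycle (TTTCCCGC, TTTCGCGC, TTTGCCGC and TTTGGCGC), each on both strands. The E-box stood in the windows of 2 of 26 genes, Dnmt3a and Ehmt2 (7.69%), against 8.09% of the 27025 genes with a promoter in the table and 12.1% of the 9263 tested genes among them. An E2F-type word stood in 6 of 26, Dnmt1, Ezh2, Kmt5c, Suv39h1, Suz12 and Uhrf1 (23.1%), against 2.6% and 4.86%. The stretches below show these words in capitals, for genes whose RNA differed with MYC state or methionine. All genes just named except Ezh2 were considered. A stretch was kept where all of it lay before the start and outside the annotated exons of the genes considered. Exons of other genes were not checked. They are written 5′ to 3′ on the strand of the gene, and a match describes letters, not binding.
Dnmt3a, E-box, chr12:3891648-3891685, plus strand, first base 80 before the start: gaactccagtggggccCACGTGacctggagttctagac
Ehmt2, E-box, chr17:34898226-34898263, plus strand, first base 232 before the start: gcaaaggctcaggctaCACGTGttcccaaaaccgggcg
Suv39h1, E2F-type, chrX:8074402-8074441, minus strand, first base 64 before the start: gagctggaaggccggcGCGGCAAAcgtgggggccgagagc
Uhrf1, E2F-type, chr17:56304112-56304151, plus strand, first base 185 before the start: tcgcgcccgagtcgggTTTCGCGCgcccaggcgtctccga
Suz12, E2F-type, chr11:79992871-79992910, plus strand, first base 219 before the start: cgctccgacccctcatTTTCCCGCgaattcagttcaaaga
Kmt5c, E2F-type, chr7:4740006-4740045, plus strand, first base 105 before the start: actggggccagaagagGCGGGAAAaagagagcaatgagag

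Per length, the most abundant transcript was Ehmt2, which encodes the H3K9 enzyme G9a. In MYC high cells its level per kilobase of annotated exon was 866 ± 20.5 normalized counts at 10 µM (SD, n = 3) and 559 ± 14.4 at 200 µM (n = 2). The MYC low values were 883 ± 19.1 at 10 µM and 748 ± 29.0 at 200 µM (n = 3 each). It ranked 1 in each group except MYC high at 200 µM, where it ranked 3 and Kmt5a, the H4K20 monomethylase, ranked 1 at 726 ± 22.8. The lowest level per kilobase in each of the 4 groups was that of the de novo DNA methyltransferase Dnmt3b, at 12.5 ± 1.18 and 9.61 ± 0.656 in MYC high cells at 10 and 200 µM, and 4.63 ± 0.524 and 4.89 ± 1.24 in MYC low cells. Summed over all 35 genes, the normalized counts of MYC high libraries were 43340 to 44850 at 10 µM and 52510 to 53760 at 200 µM. Those of MYC low libraries were 40640 to 41690 at 10 µM and 42350 to 44410 at 200 µM. The 2 MYC high libraries at 200 µM lay above the other 9.

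**Figure D1:**
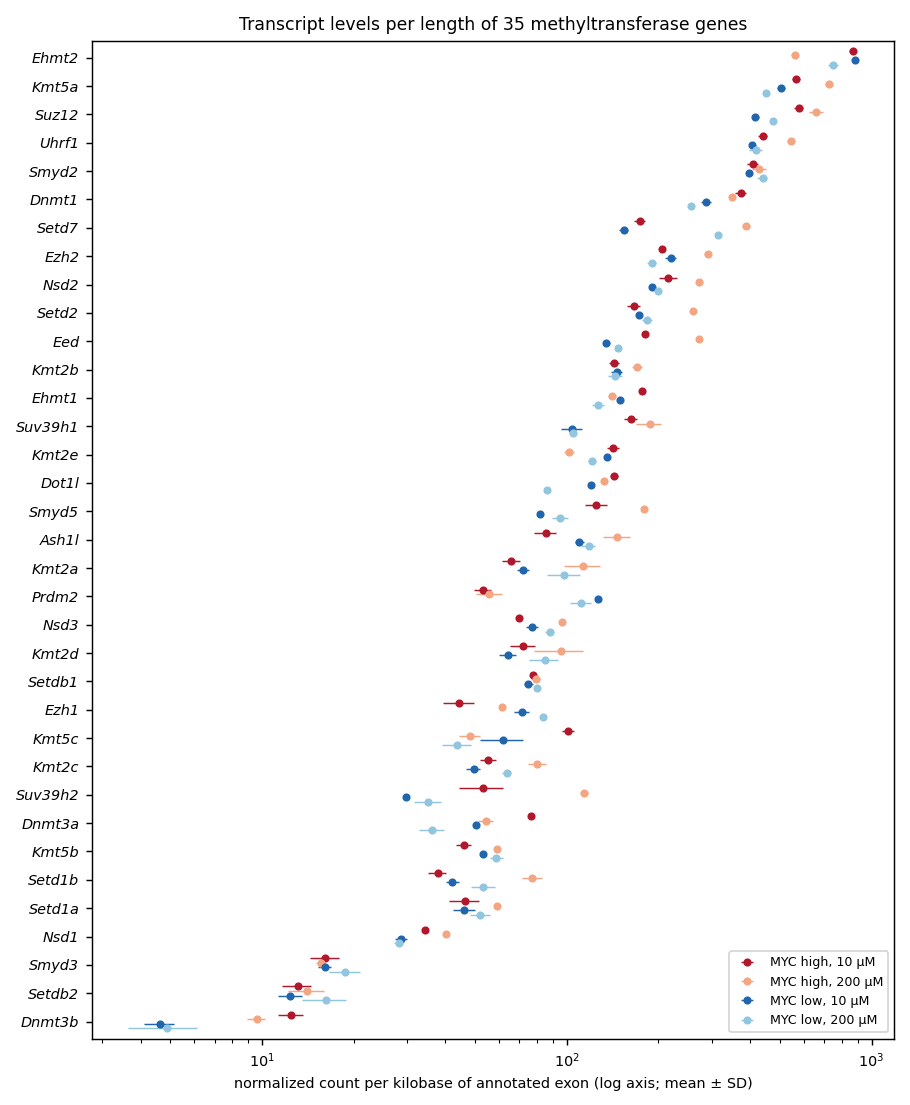
Normalized counts per kilobase of annotated exon (log axis) for the 35 genes in the 4 groups, as mean and SD of 2 or 3 libraries. Ehmt2, Kmt5a, Suz12 and Uhrf1 lie at the high end and Smyd3, Setdb2 and Dnmt3b at the low end in each group.

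Between MYC states, most of the changed genes were higher in MYC high cells. A gene is called changed below where limma's moderated test on log2(normalized count + 1), adjusted with Benjamini-Hochberg over the 12909 tested genes, gave an adjusted p under 0.05. At 200 µM methionine 24 of the 35 rose in MYC high cells, against 36.8% of all tested genes, 4 fell, against 37.6%, and 7 were not called. At 10 µM 18 rose, against 35.7% of all tested genes, 7 fell, against 35.8%, and 10 were not called. The median log2 difference of the 35 was 0.31 at 200 µM and 0.12 at 10 µM, beside -0.0031 and 0.0015 over all tested genes. With libraries scaled to their totals, the medians over all tested genes were -0.089 and -0.056. Normalized counts are scaled between libraries, so a rise or fall here and below is relative to the other genes. Such counts do not give the amount of RNA per cell. The differences were mostly small: 9 of 35 were called with at least a 1.5-fold change at 200 µM, against 40.8% of all tested genes, and 8 of 35 at 10 µM, against 32.9%. At 10 µM that count was 5 when libraries were scaled to their totals and also without MYC low 10 µM replicate 2.

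Called higher in MYC high cells at both methionine levels were 17 of the 35 genes, against 23.2% of all tested genes, among them all 4 of DNA methylation, Suv39h1 and Suv39h2, Eed and Suz12, and Kmt5a and Dot1l. At 10 µM the calls of Uhrf1 and Kmt2c were lost under 2 of 20 other settings each and that of Kmt2d under 6, and at 200 µM that of Ehmt1 under 2 and that of Kmt2d under 6. Prdm2 and Ezh1 were called lower at both, against 23.7% of all tested genes. Ash1l, Ezh2, Nsd3 and Setd1b were called lower at 10 µM and higher at 200 µM, against 4.75% of all tested genes. Of these, the calls at 10 µM of Ezh2 (adjusted p = 0.0417) and Setd1b (0.0226) were lost under 8 and 4 of 20 other settings. The 200 µM call of Nsd3 was lost under total-count scaling (adjusted p = 0.348), without MYC high 200 µM replicate 3 (0.0527) and without MYC low 200 µM replicate 3 (0.0554). Setd1a, Setdb1, Setdb2, Smyd2 and Smyd3 were called at neither level, against 11.1% of all tested genes. By role, at 200 µM the 4 DNA methylation genes rose and so did all 5 H3K36 genes (median log2 0.45). The 7 H3K9 genes were divided, with 3 higher and 2 lower (median -0.02, mean 0.15). Over all tested genes 36.8% rose and 37.6% fell at that level. At 10 µM the 5 H3K36 genes stood at 2 higher and 2 lower, against 35.7% and 35.8% of all tested genes.

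**Figure D2:**
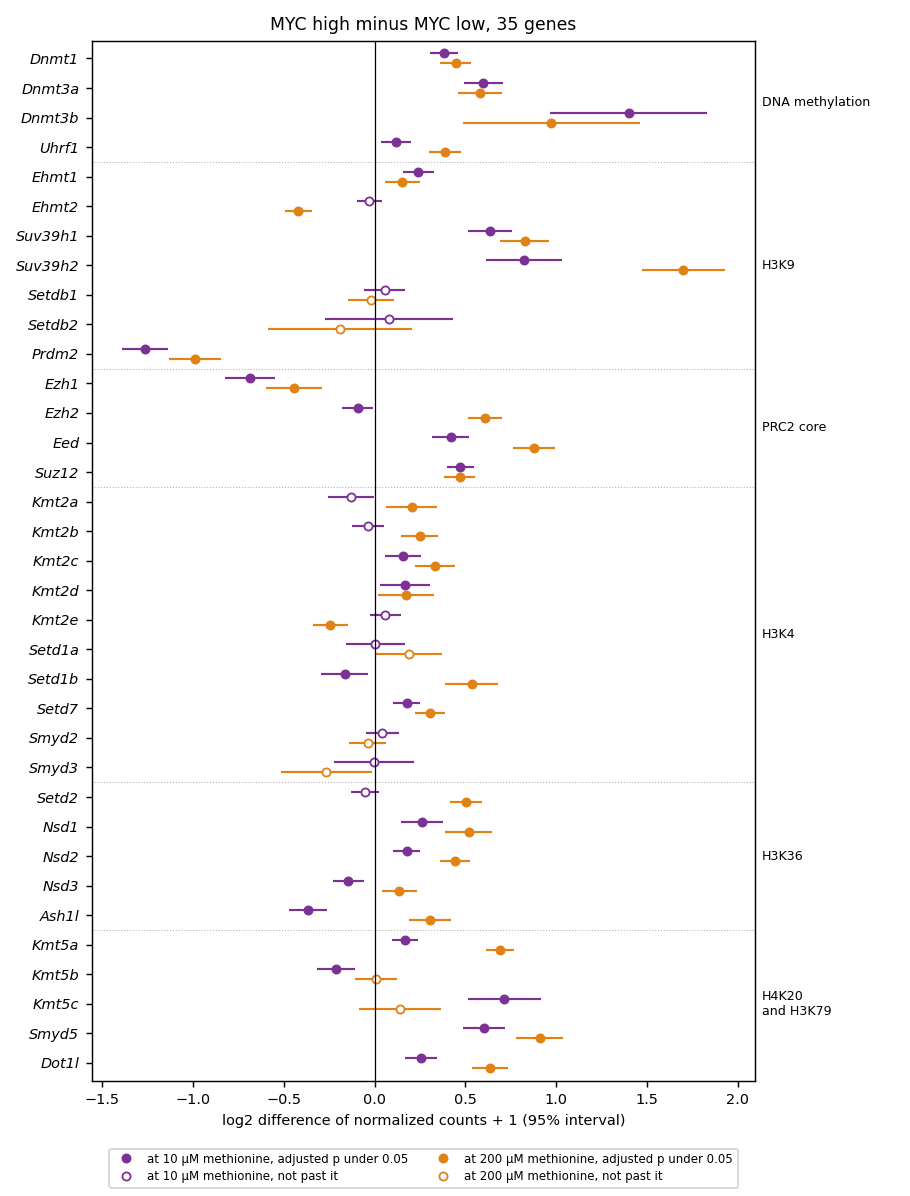
Log2 differences of MYC high minus MYC low cells for the 35 genes, grouped by role, at 10 µM (purple) and 200 µM methionine (orange), with 95% intervals; filled points passed the adjusted threshold. Prdm2 lies farthest to the left at both levels, at -1.26 and -0.99, and Suv39h2 farthest to the right at 200 µM, at 1.70.

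At low methionine most of the changed genes were lower in MYC high cells, while in MYC low cells the directions were closer to even. In MYC high cells at 10 against 200 µM, 5 of 35 genes rose, against 37.9% of all tested genes, 22 fell, against 37.9%, and 8 were not called (median log2 difference -0.31, beside -0.0039 over all genes). Of them 9 were called with at least a 1.5-fold change, against 43.2%, 2 higher (Kmt5c, Ehmt2) and 7 lower. Among MYC low libraries 10 rose, against 29.4% of all tested genes, 13 fell, against 29.9%, and 12 were not called (median -0.10, beside 0.0011). There 1 gene, Setd7, passed 1.5-fold, against 16.7% of all tested genes, and 2 did without MYC low 10 µM replicate 2.

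Called lower in both MYC states were 12 of the 35 genes, against 21.6% of all tested genes: Setd7, Suv39h2, Eed, Ezh1, Suz12, Kmt2a, Kmt2c, Kmt2d, Setd1b, Nsd3, Kmt5b and Smyd5. Of these, the calls in MYC low cells were lost under 11 of 20 other settings for Suv39h2, 6 for Eed and 1 for Kmt5b. Dnmt3a, Ehmt1, Ehmt2, Kmt2e and Kmt5c were called higher in both, against 21.6% of all tested genes. Ezh2 and Kmt5a were called lower in MYC high cells and higher in MYC low cells, against 3.43%. Dnmt3b, Setdb1, Setdb2 and Smyd3 were called in neither, against 14.8%. All 4 PRC2 core genes and all 5 H3K36 genes fell in MYC high cells (medians -0.48 and -0.47), and 7 of 10 H3K4 genes did (median -0.38). The share of all tested genes that fell there was 37.9%. The falls in MYC low cells comprised 3 of 4 PRC2 core genes, 1 of 5 H3K36 genes and 6 of 10 H3K4 genes. Over all tested genes 29.9% fell in MYC low cells.

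Other values moved with methionine too. Summed, the 5 macrophage markers gave 873 to 906 normalized counts at 10 µM and 263 to 286 at 200 µM in MYC high cells. The MYC low libraries gave 931 to 974 at 10 µM and 482 to 533 at 200 µM. It came from Cd68 and Csf1r, with Ptprc at 0 reads, and its part in these results was not tested. Of 20 genes of S phase and mitosis, 9 rose and 11 fell at 10 µM in MYC high cells, against 37.9% of all tested genes in each direction: Mcm4 (log2 -1.77) and Mcm2 (-1.70), subunits of the replicative helicase, fell, and the mitotic kinase Plk1 rose (1.90). In MYC low cells 10 rose, against 29.4%, and 9 fell, against 29.9%. The part of cell cycle genes in the results was not tested either.

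**Figure D3:**
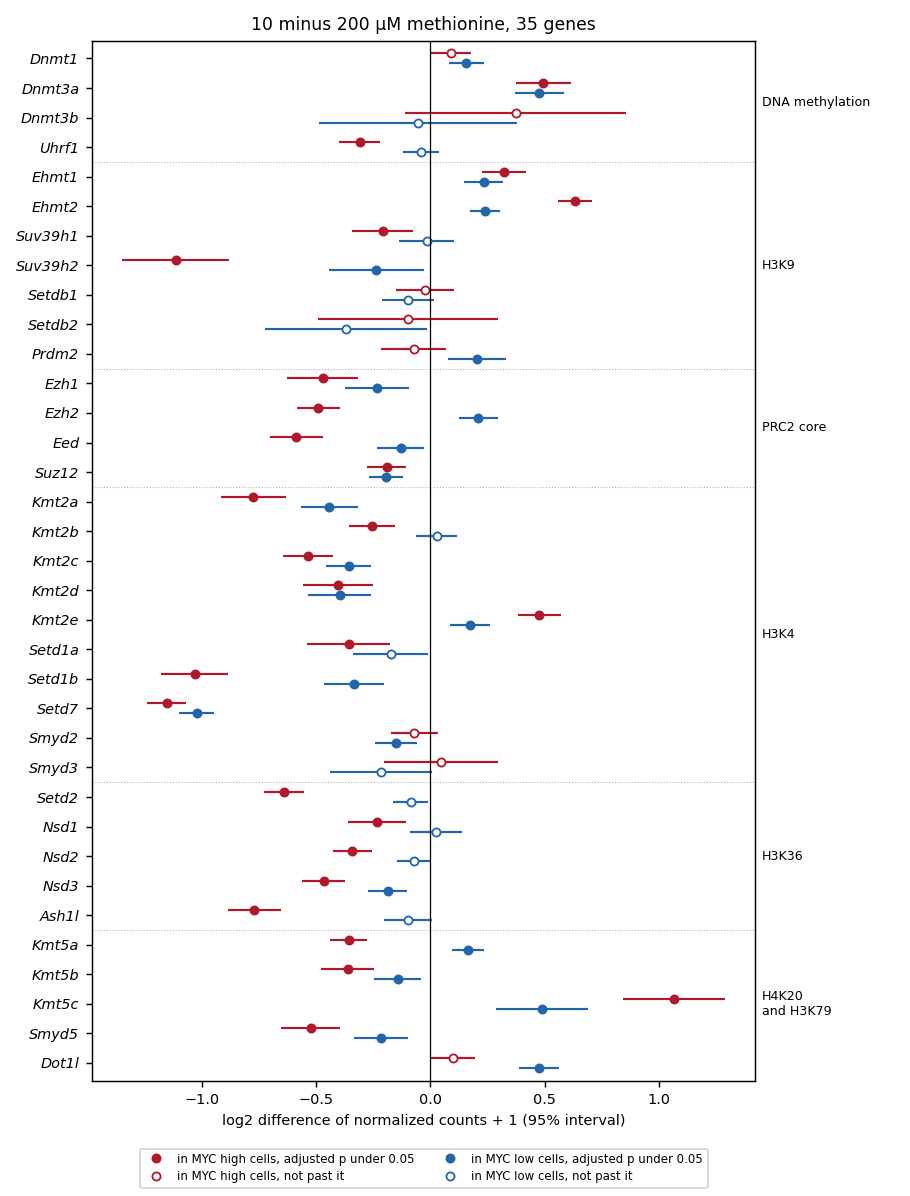
Log2 differences of 10 minus 200 µM methionine for the 35 genes, grouped by role, in MYC high cells (red) and MYC low cells (blue), with 95% intervals; filled points passed the adjusted threshold. Setd7 lies farthest to the left in both states, at -1.15 and -1.02, and Kmt5c farthest to the right, at 1.07 and 0.49.

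The difference between the methionine responses of the 2 MYC states was tested as an interaction, the response in MYC high cells minus that in MYC low cells. It was positive and past the threshold for 3 of 35 genes, against 31.0% of all tested genes, and negative for 20, against 29.4%, with 12 not called. Of these, 4 were at least 1.5-fold (Suv39h2, Ezh2, Setd1b, Ash1l), against 29.8%. The median over the 35 was -0.22, beside 0.0105 over all tested genes. By role, all 5 H3K36 genes had a negative interaction (median -0.28), as did 4 of the 5 H4K20 and H3K79 genes and 3 of the 4 PRC2 core genes, and 1 of 4 DNA methylation genes. The other 19 called interactions were under 1.5-fold.

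Dnmt1, which copies methylation onto newly made DNA, had 2682, 2664 and 2887 normalized counts in MYC high cells at 10 µM and 2621 and 2533 at 200 µM, against 2200, 2076 and 2045 in MYC low cells at 10 µM and 1926, 1844 and 1899 at 200 µM. Every MYC high library lay above every MYC low one, and the log2 difference was 0.38 at 10 µM (SE 0.0379, adjusted p = 2.45e-11) and 0.45 at 200 µM (SE 0.0423, adjusted p = 6.15e-12). At low methionine Dnmt1 rose in MYC low cells (0.16, adjusted p = 5.26e-04) and was 0.09 in MYC high cells, where it was not called (adjusted p = 0.0534). The interaction was not called (-0.07, adjusted p = 0.318). Its partner Uhrf1, which recognises hemimethylated DNA and brings Dnmt1 to it, had 1807, 1880 and 1924 in MYC high cells at 10 µM and 2274 and 2364 at 200 µM, against 1723, 1679 and 1766 in MYC low cells at 10 µM and 1775, 1684 and 1862 at 200 µM. Uhrf1 was thus highest in the 2 MYC high libraries at 200 µM. Its MYC difference at 10 µM (log2 0.12, adjusted p = 0.00817) was lost as a call under total-count scaling (adjusted p = 0.175) and without MYC low 10 µM replicate 2 (0.0503). It fell at 10 µM in MYC high cells (log2 -0.31, SE 0.0443, adjusted p = 8.44e-08) and was not called in MYC low cells (-0.04, adjusted p = 0.38), and its interaction was -0.27 (adjusted p = 1.87e-04).

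Dnmt3a, a de novo DNA methyltransferase, had 1250, 1288 and 1270 normalized counts in MYC high cells at 10 µM and 939 and 865 at 200 µM, against 839, 818 and 856 in MYC low cells at 10 µM and 667, 562 and 581 at 200 µM. It was higher in MYC high cells and at low methionine alike: by 0.60 and 0.58 on the log2 scale between MYC states at 10 and 200 µM, and by 0.49 and 0.48 at 10 µM methionine in MYC high and MYC low cells, with adjusted p of 2.09e-09 or lower in each. The interaction was 0.02 with a 95% interval of -0.14 to 0.18. Dnmt3b had 60.1, 60.8 and 70.9 in MYC high cells at 10 µM and 51.4 and 46.7 at 200 µM, against 26.2, 20.9 and 23.8 in MYC low cells at 10 µM and 32.2, 20.5 and 22.3 at 200 µM. It rose with MYC (log2 1.40, SE 0.213, adjusted p = 3.47e-07 at 10 µM; 0.97, SE 0.239, adjusted p = 4.33e-04 at 200 µM) and was called in neither methionine comparison. Reads of Dnmt3a could be shared with its annotated pseudogene Dnmt3a-ps1.

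Suv39h1 and Suv39h2 trimethylate H3K9 at pericentric heterochromatin. Suv39h2 had 192, 267 and 244 normalized counts in MYC high cells at 10 µM and 494 and 514 at 200 µM, against 134, 127 and 131 in MYC low cells at 10 µM and 149, 173 and 142 at 200 µM. It had the largest MYC difference among the 35 at 200 µM (log2 1.70, SE 0.115, 3.25-fold, adjusted p = 6.37e-16) and a smaller one at 10 µM (0.82, SE 0.103, adjusted p = 6.07e-09). At 10 µM methionine it fell in MYC high cells (-1.11, SE 0.115, adjusted p = 5.58e-11). Its value in MYC low cells was -0.24 with adjusted p = 0.0467, a call lost under 11 of 20 other settings, and the interaction was -0.88 (SE 0.155, adjusted p = 7.35e-06). Suv39h1 had 902, 840 and 817 in MYC high cells at 10 µM and 922 and 1053 at 200 µM, against 592, 507 and 550 in MYC low cells at 10 µM and 553, 540 and 573 at 200 µM. Its 5 MYC high libraries lay above its 6 MYC low ones (log2 0.63 at 10 µM, SE 0.0589, adjusted p = 4.07e-12; 0.83 at 200 µM, SE 0.0658, adjusted p = 5.99e-14). Its fall with methionine in MYC high cells (-0.21, adjusted p = 0.00457) was lost without MYC high 200 µM replicate 3 (adjusted p = 0.208). Genes on the opposite strand overlap 14.55% of the exon length of Suv39h1 and 9.98% of that of Suv39h2, and the strand setting of the counting is not given in the sources used here.

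Ehmt2 and its partner Ehmt1 (GLP) mono- and dimethylate H3K9 in euchromatin. Ehmt2 had 4625, 4809 and 4830 normalized counts in MYC high cells at 10 µM and 3123 and 3011 at 200 µM, against 4813, 4766 and 4966 in MYC low cells at 10 µM and 4290, 4025 and 4005 at 200 µM. It was lowest in MYC high cells at 200 µM. It fell with MYC at 200 µM (log2 -0.42, SE 0.0366, adjusted p = 6.71e-13), was not called at 10 µM (-0.03, adjusted p = 0.449), and rose at 10 µM methionine in MYC high cells (0.63, SE 0.0366, adjusted p = 5.22e-18) and in MYC low cells (0.24, adjusted p = 6.22e-08), with an interaction of 0.39 (adjusted p = 1.13e-08). Ehmt1 had 1433, 1436 and 1428 in MYC high cells at 10 µM and 1171 and 1121 at 200 µM, against 1188, 1212 and 1235 in MYC low cells at 10 µM and 1069, 1045 and 980 at 200 µM. With MYC it rose at 10 µM (log2 0.24) and 200 µM (0.15), and it rose at low methionine in MYC high (0.32) and MYC low cells (0.23). The call at 200 µM was lost under total-count scaling and without MYC high 200 µM replicate 2, with an adjusted p of up to 0.203.

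Prdm2 (RIZ), a zinc finger protein with an H3K9 methyltransferase domain, was the gene most lowered in MYC high cells. It had 385, 372 and 422 normalized counts in MYC high cells at 10 µM and 443 and 385 at 200 µM, against 951, 928 and 952 in MYC low cells at 10 µM and 872, 845 and 748 at 200 µM. All MYC high libraries lay below all MYC low ones (log2 -1.26 at 10 µM, SE 0.0622, 2.4-fold, adjusted p = 4.22e-20; -0.99 at 200 µM, SE 0.0695, adjusted p = 1.87e-15). It was not called between methionine levels in MYC high cells (-0.07, adjusted p = 0.335), and its rise in MYC low cells (0.20, adjusted p = 0.00519) was lost without MYC low 200 µM replicate 3 (adjusted p = 0.0804). Setdb1, which trimethylates H3K9 at retroelements with Trim28, and Setdb2 passed the threshold in none of the 5 comparisons. Setdb1 lay between 501 and 558 normalized counts in the 11 libraries and Setdb2 between 45.2 and 77.8.

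In PRC2, Ezh2 and Ezh1 are the alternative catalytic subunits, and Eed and Suz12 are needed for activity. Ezh2 had 1385, 1401 and 1342 normalized counts in MYC high cells at 10 µM and 1899 and 1968 at 200 µM, against 1523, 1480 and 1403 in MYC low cells at 10 µM and 1318, 1232 and 1258 at 200 µM. Between MYC states it was higher at 200 µM (log2 0.61, SE 0.0461, adjusted p = 1.64e-14) and -0.09 at 10 µM. At low methionine it fell in MYC high cells (-0.49, SE 0.0461, adjusted p = 4.79e-12) and rose in MYC low cells (0.21, SE 0.0413, adjusted p = 3.68e-05), and the interaction was -0.70 (SE 0.0619, adjusted p = 3.02e-12). Ezh1 had 372, 295 and 325 in MYC high cells at 10 µM and 465 and 449 at 200 µM, against 501, 561 and 528 in MYC low cells at 10 µM and 639, 615 and 614 at 200 µM. Every MYC high library lay below every MYC low one. Ezh1 fell with MYC by 0.68 at 10 µM and 0.45 at 200 µM on the log2 scale (adjusted p = 2.74e-11 and 2.7e-06), and with low methionine by 0.47 in MYC high cells and 0.23 in MYC low cells (adjusted p = 9.11e-07 and 0.00356). Its interaction (-0.24, adjusted p = 0.0427) was lost under 13 of 20 other settings.

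Eed had 693, 693 and 682 normalized counts in MYC high cells at 10 µM and 1036 and 1035 at 200 µM, against 502, 529 and 516 in MYC low cells at 10 µM and 566, 562 and 564 at 200 µM. It rose with MYC at 200 µM (log2 0.88, SE 0.0568, adjusted p = 1.71e-16) and at 10 µM (0.42, adjusted p = 2.96e-09), and fell at low methionine in MYC high cells (-0.59, adjusted p = 9.98e-12). The value in MYC low cells was -0.13, a call (adjusted p = 0.0268) lost under 6 of 20 other settings. Suz12 lay at 2747 to 2954 (10 µM) and 3133 to 3385 (200 µM) in MYC high cells, against 1990 to 2108 (10 µM) and 2292 to 2390 (200 µM) in MYC low cells. Suz12 rose with MYC by the same rounded amount at both levels (0.47) and fell by 0.19 in MYC high cells and 0.20 in MYC low cells at low methionine. The Suz12 interaction was not called (adjusted p = 0.953).

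**Figure D4:**
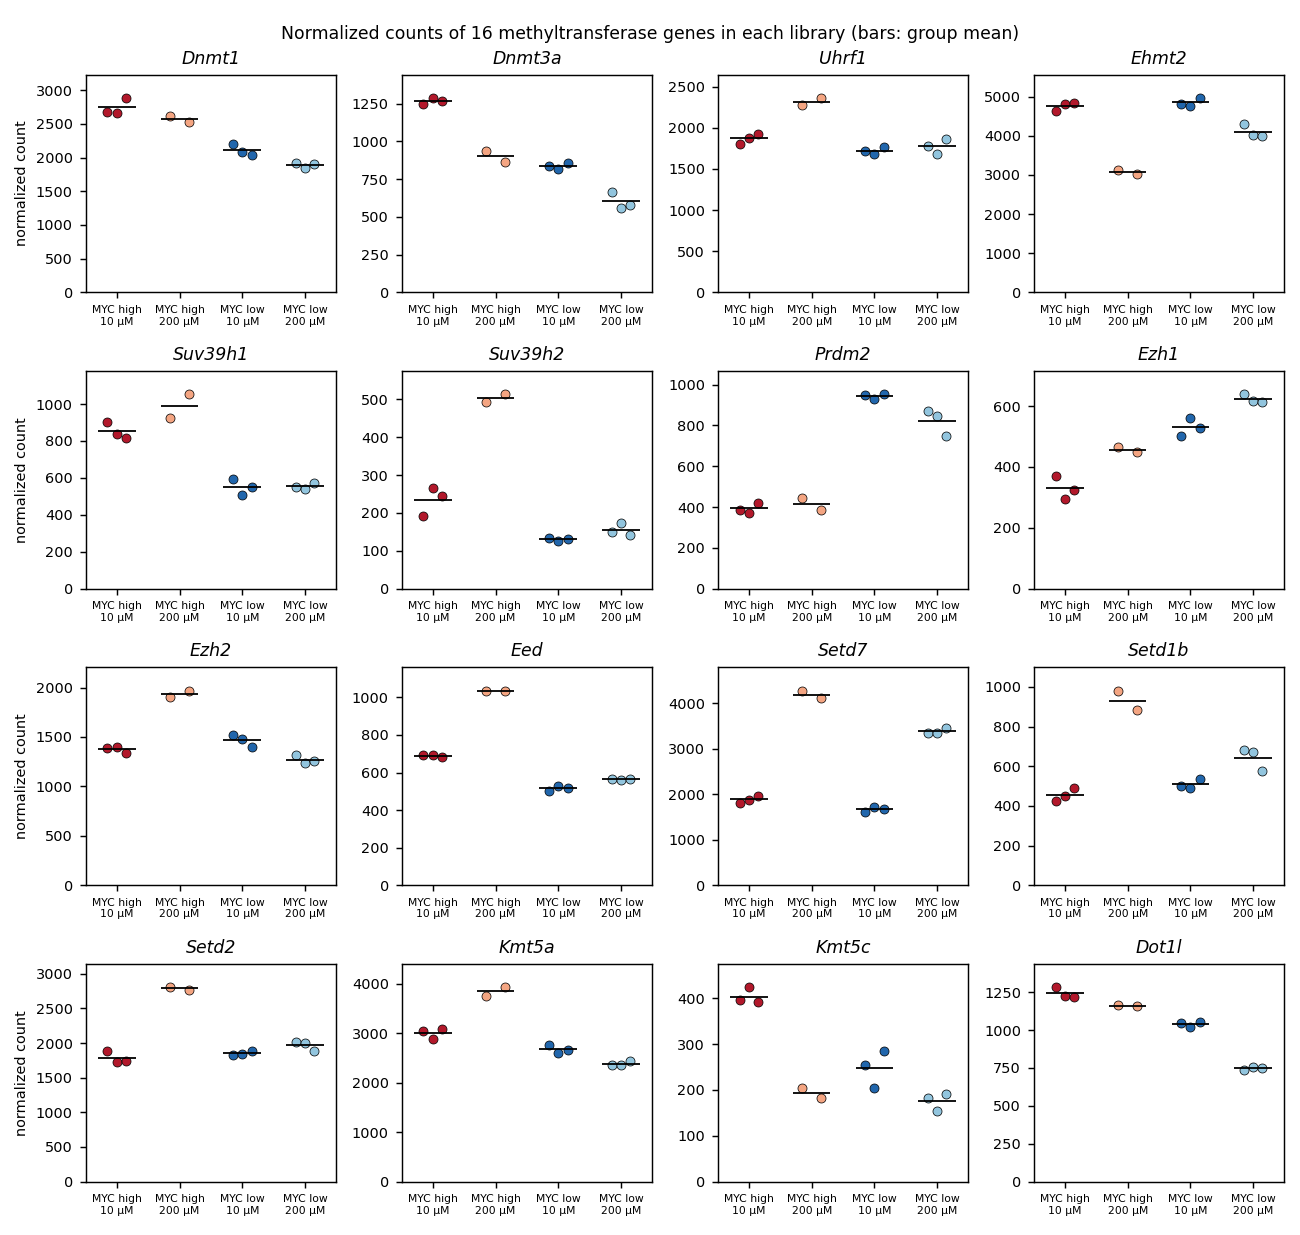
Normalized counts of selected methyltransferase genes in each library, with bars for the group means; each vertical axis starts at 0. Prdm2 and Ezh1 lie lower in all MYC high libraries, Dnmt1 and Suv39h1 higher, and Setd7 is lower at 10 µM in both MYC states.

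Setd7, which monomethylates H3K4 and several other proteins, had the largest methionine difference of the 35 genes in both MYC states. It had 1808, 1874 and 1965 normalized counts in MYC high cells at 10 µM and 4273 and 4102 at 200 µM, and 1608, 1716 and 1672 in MYC low cells at 10 µM and 3347, 3349 and 3456 at 200 µM. It fell in MYC high cells (log2 -1.15, SE 0.0409, 2.23-fold, adjusted p = 1.49e-24) and in MYC low cells (-1.02, SE 0.0366, 2.03-fold, adjusted p = 8.4e-24). In each state all 10 µM libraries lay below all 200 µM libraries. The interaction of -0.13 (adjusted p = 0.0387) was lost under 12 of 20 other settings.

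The 6 large H3K4 enzymes of the COMPASS complexes fell at low methionine in MYC high cells, against 37.9% of all tested genes. In MYC low cells 4 of them did, against 29.9%. Setd1b had 426, 451 and 488 normalized counts in MYC high cells at 10 µM and 981 and 882 at 200 µM, and 499, 492 and 537 in MYC low cells at 10 µM and 682, 673 and 576 at 200 µM. It fell by 1.03 in MYC high cells (SE 0.0722, adjusted p = 1.37e-15) and by 0.33 in MYC low cells (adjusted p = 2.99e-05) on the log2 scale, with an interaction of -0.70 (SE 0.0969, adjusted p = 9.34e-08). Kmt2a (MLL1) had 1176, 1028 and 1093 in MYC high cells at 10 µM and 2067 and 1706 at 200 µM, and 1241, 1140 and 1220 in MYC low cells at 10 µM and 1843, 1634 and 1440 at 200 µM. It fell by 0.77 in MYC high (adjusted p = 1.29e-12) and 0.44 in MYC low cells (adjusted p = 1.06e-07). The enhancer enzymes Kmt2c and Kmt2d fell in both states, Kmt2c by 0.54 in MYC high cells and 0.36 in MYC low cells, and Kmt2d by 0.40 in each. Kmt2b fell in MYC high cells by 0.26 and was not called in MYC low cells (0.03), and Setd1a fell in MYC high cells by 0.36 and was not called in MYC low cells (-0.17).

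Kmt2e, a member of the same family without known methyltransferase activity, went the other way: it rose at low methionine in MYC high cells (log2 0.48, adjusted p = 1.87e-11) and MYC low cells (0.17) and was lower with MYC at 200 µM (-0.25, adjusted p = 1.74e-05). Between MYC states at 200 µM, Kmt2b (0.25) and Kmt2c (0.33) rose, and the calls of Kmt2a (0.20, adjusted p = 0.00873) and Kmt2d (0.17, adjusted p = 0.0395) were lost under 5 and 6 of 20 other settings. Kmt2d had 2157 and 1659 counts in the 2 MYC high libraries at 200 µM, and its difference was -0.017 without replicate 2, the higher of them. Without that library Kmt2a was 0.065 (adjusted p = 0.483). Smyd2 and Smyd3, methyltransferases of the SMYD family, were called once among their 10 results, Smyd2 lower at low methionine in MYC low cells (-0.15, adjusted p = 0.00401). Of the exon length of Smyd2 29.96% is overlapped on the opposite strand.

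Among H3K36 enzymes, Setd2 is the one known for trimethylation along transcribed genes, and Nsd1, Nsd2, Nsd3 and Ash1l for dimethylation. Setd2 had 1888, 1730 and 1746 normalized counts in MYC high cells at 10 µM and 2808 and 2770 at 200 µM, and 1833, 1836 and 1892 in MYC low cells at 10 µM and 2020, 2006 and 1884 at 200 µM. It stood apart in the 2 MYC high libraries at 200 µM, with a log2 difference of 0.50 between MYC states there (adjusted p = 5.29e-13), a fall of 0.64 at low methionine in MYC high cells (SE 0.0433, adjusted p = 4.73e-16) and -0.09 in MYC low cells (adjusted p = 0.0507). Ash1l had 1350, 1149 and 1304 in MYC high cells at 10 µM and 2319 and 2008 at 200 µM, and 1624, 1579 and 1694 in MYC low cells at 10 µM and 1844, 1743 and 1660 at 200 µM. It was lower in MYC high cells at 10 µM (-0.37, SE 0.0508, adjusted p = 5.06e-08) and higher at 200 µM (0.30, SE 0.0568, adjusted p = 1.05e-05), and its interaction was -0.67 (SE 0.0762, adjusted p = 1.31e-09). Nsd2, the most abundant of the Nsd genes per length, had 3326 to 3769 counts (10 µM) and 4481 to 4647 (200 µM) in MYC high cells, and 3123 to 3236 (10 µM) and 3307 to 3395 (200 µM) in MYC low cells. Nsd1, Nsd2 and Nsd3 fell at low methionine in MYC high cells by 0.23, 0.34 and 0.47, and of these Nsd3 alone was called in MYC low cells, where it fell by 0.19.

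Kmt5a (SET8) monomethylates H4K20, and Kmt5b and Kmt5c carry it on to di- and trimethylation. Kmt5a had 3037, 2892 and 3080 normalized counts in MYC high cells at 10 µM and 3765 and 3936 at 200 µM, against 2761, 2601 and 2658 in MYC low cells at 10 µM and 2358, 2357 and 2437 at 200 µM. Kmt5a rose with MYC by 0.69 at 200 µM (SE 0.039, adjusted p = 2.77e-18) and 0.17 at 10 µM (adjusted p = 5.74e-05). At low methionine it fell in MYC high cells (-0.36, SE 0.039, adjusted p = 1.89e-10) and rose in MYC low cells (0.17, SE 0.0349, adjusted p = 1e-04), with an interaction of -0.52 (adjusted p = 6.5e-11). Kmt5c, the H4K20 trimethylase of heterochromatin, had 395, 424 and 391 in MYC high cells at 10 µM and 203 and 181 at 200 µM, against 255, 204 and 284 in MYC low cells at 10 µM and 181, 154 and 191 at 200 µM. It was highest in the 3 MYC high libraries at 10 µM. It rose at low methionine in MYC high cells (1.07, SE 0.111, adjusted p = 6.19e-11) and MYC low cells (0.49, SE 0.0991, adjusted p = 5.6e-05), and with MYC at 10 µM (0.71, adjusted p = 5.27e-08) but was not called at 200 µM (0.14, adjusted p = 0.26). Kmt5b fell at low methionine in both states, by 0.36 in MYC high cells and 0.14 in MYC low cells, the second call being lost without MYC low 200 µM replicate 3 (adjusted p = 0.109).

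Dot1l, the H3K79 methyltransferase, had 1284, 1227 and 1221 normalized counts in MYC high cells at 10 µM and 1164 and 1160 at 200 µM, against 1049, 1023 and 1053 in MYC low cells at 10 µM and 734, 759 and 752 at 200 µM. Dot1l rose with MYC (log2 0.26 at 10 µM, adjusted p = 2.44e-06; 0.63 at 200 µM, SE 0.0485, adjusted p = 2e-14). At low methionine it rose in MYC low cells (0.48, SE 0.0434, adjusted p = 5.45e-12) and was 0.10 in MYC high cells (adjusted p = 0.0658), and the interaction was -0.38 (adjusted p = 4.9e-06). Smyd5, a histone methyltransferase known for H4K20, had 768, 758 and 661 in MYC high cells at 10 µM and 1055 and 1040 at 200 µM, against 481, 477 and 478 in MYC low cells at 10 µM and 588, 523 and 559 at 200 µM. It rose with MYC by 0.60 at 10 µM (adjusted p = 9.4e-12) and 0.91 at 200 µM (SE 0.0646, adjusted p = 2.19e-15), and fell at low methionine in both states.

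Ratios of normalized counts within a library compare the RNA of paralogous genes without scaling between libraries, and their changes were not tested. The ratios are not corrected for exon length, so they do not show which gene had more transcript per length. The MYC high libraries had an Ezh2 to Ezh1 ratio of 3.73 to 4.75 at 10 µM and 4.08 to 4.39 at 200 µM, against 2.64 to 3.04 in MYC low cells at 10 µM and at most 2.06 at 200 µM. Suv39h1 to Suv39h2 was 1.87 to 2.05 in MYC high cells at 200 µM, below the 3.12 to 4.71 of the other groups. In MYC high libraries the Kmt5b to Kmt5c ratio was 1.51 to 1.83 at 10 µM and 4.24 to 4.85 at 200 µM. For MYC low libraries that ratio was 2.78 to 3.86 at 10 µM and 4.77 to 5.37 at 200 µM. The lower ratio at 10 µM went with more Kmt5c and less Kmt5b RNA. Kmt5b has 14752 bases of annotated exon and Kmt5c 4001. Per kilobase, mean Kmt5c exceeded mean Kmt5b at 10 µM, at 101 against 45.9 in MYC high cells and 61.9 against 53.2 in MYC low cells. At 200 µM Kmt5c was the lower, at 48.1 against 59.0 in MYC high cells and 43.8 against 58.8 in MYC low cells. Ehmt2 to Ehmt1 was lowest in MYC high cells at 200 µM, at 2.67 to 2.69.

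**Figure D5:**
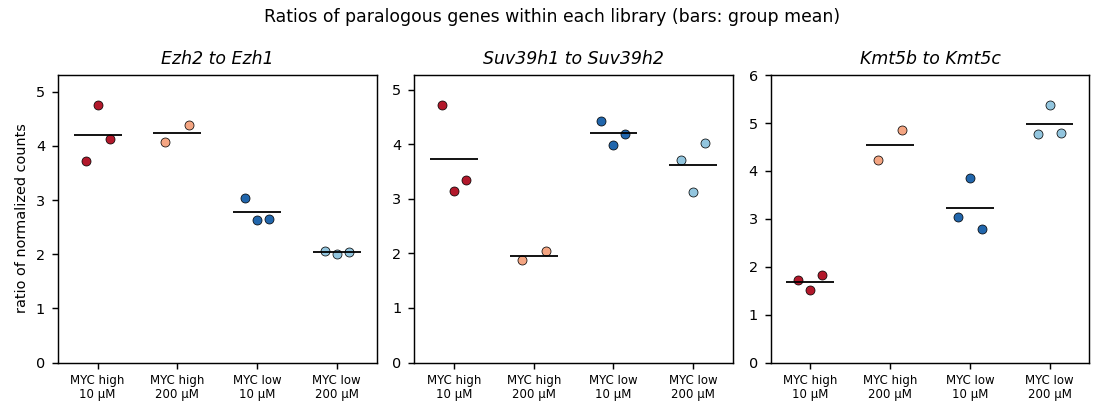
Ratios of normalized counts of paralogous genes in each library, not corrected for exon length, with bars for the group means and axes from 0. Ezh2 to Ezh1 separates MYC high from MYC low libraries, Suv39h1 to Suv39h2 is lowest in MYC high cells at 200 µM, and Kmt5b to Kmt5c is lowest in MYC high cells at 10 µM.

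Genes that work with or against these enzymes were counted in the same way. Over all tested genes, the shares that rose and fell with MYC were 36.8% and 37.6% at 200 µM and 35.7% and 35.8% at 10 µM. At low methionine they were 37.9% each in MYC high cells, and 29.4% and 29.9% in MYC low cells. Of 23 tested histone lysine demethylases, 16 rose and 4 fell in MYC high cells at 200 µM, and 15 rose and 5 fell at 10 µM. Kdm3a (0.98) and Kdm4b (0.83), which remove H3K9 methylation, and Kdm6b (0.83), which removes H3K27 methylation, were among those higher at 10 µM. At low methionine 9 demethylases rose and 13 fell in MYC high cells, and 3 rose and 13 fell in MYC low cells. Of 12 tested COMPASS subunits, 9 rose and 1 fell with MYC at 200 µM and 7 rose and 2 fell at 10 µM, among them Wdr5, a shared scaffold (1.02 at 200 µM, 0.80 at 10 µM). At low methionine 4 rose and 8 fell in MYC high cells, and 1 rose and 6 fell in MYC low cells. Wdr5 fell by 0.79 in MYC high cells and by 0.57 in MYC low cells, and Rbbp5, another core subunit, fell by 1.31 and 0.46.

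The counts of the next lists stand against the same shares of all tested genes, from 35.7% to 37.9% in each direction, and 29.4% up and 29.9% down at low methionine in MYC low cells. Of 8 tested PRC2 accessory genes, 4 rose and 1 fell with MYC at 200 µM, 6 rose and 1 fell at 10 µM, and at low methionine 2 rose and 5 fell in MYC high cells and 1 rose and 5 fell in MYC low cells. The histone chaperones Rbbp4 and Rbbp7 rose with MYC at 200 µM (0.65 and 0.64) and Phf1 fell (-1.74). Of 11 heterochromatin partners, 9 rose and 1 fell with MYC at 200 µM and 6 rose and 2 fell at 10 µM. At low methionine 2 rose and 8 fell in MYC high cells, with Trim28 at -0.76 and Cdyl at -1.27, and 2 rose and 6 fell in MYC low cells. Of 11 TET dioxygenases and methyl-CpG readers, which act on or read DNA methylation, 5 rose and 3 fell with MYC at 200 µM and 4 rose and 5 fell at 10 µM. Tet2 rose at low methionine in MYC high cells (1.71) and the reader Mbd1 (-0.87) fell. In that list 3 rose and 6 fell in MYC high cells and 2 rose and 2 fell in MYC low cells. Of the 20 genes of S phase and mitosis, 14 rose and 1 fell with MYC at 200 µM (median 0.44), against 36.8% and 37.6%, and 15 rose and 3 fell at 10 µM (median 0.39), against 35.7% and 35.8%.

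Many of these transcripts are long: 13 of the 35 have at least 10000 bases of annotated exon, as do 1138 of the tested genes. In MYC high cells at low methionine 11 of the 13 fell (median log2 -0.47), against 43.1% of the long tested genes (median -0.05). In MYC low cells 7 of the 13 fell (median -0.14), against 38.6% (median -0.06). With MYC at 200 µM 11 of the 13 rose (median 0.31), against 31.9% of the long genes (median -0.12), and at 10 µM 6 rose (median 0.06), against 31.3% (median -0.10). The length class was set after the values were seen, and these counts are a description. The median deviation of the long tested genes from their group mean ranged from -0.0447 to 0.0304 among libraries. These extremes were MYC high 10 µM replicates 2 and 3. Long genes can thus shift together within a library, and the 13 are not separate observations.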

How the data were processed

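Each deposited value is a signal per gene and library, described by the authors as a normalized count, per the labels. Per the submitters' processing notes, the tools were HTSeq, STAR, fastp, SAMtools, FastQC and DESeq2 and the build GRCm39, with no roles or versions. For the annotation, strand setting and filters, nothing is given in the sources used here. Each library's values were whole multiples of 1 step, so whole reads were recovered for 100% of values (within 0.001 of a read). Columns of other samples numbered 0. A count of 0 in a library allows up to 3 reads at 95% confidence, which covers counting error only.

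Symbols, exon lengths and overlaps came from GENCODE M21 (GRCm38), which matched 52083 of 55416 identifiers. Its exon coordinates also served to leave out promoter stretches that lay in exons. The coordinates printed for promoters are those of the RefSeq table.

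Values were tested as log2(normalized count + 1), a scale that understates fold changes of low genes, with limma 3.58.1 in R 4.3.3: 1 mean per group over all 11 libraries, moderation with a trend (degrees of freedom 7 residual, 29 prior), and adjustment by Benjamini-Hochberg within each of 5 comparisons over the 12909 genes with a mean of at least 10. The test was tried on simulated data with known changes. Replicates of a group differed by more than sampling noise (chi-square per gene 1.398 to 2.673) and each counted as 1 sample.

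Values per library are given for 12 genes fixed by name (Dnmt1, Dnmt3a, Dnmt3b, Uhrf1, Ehmt1, Ehmt2, Suv39h1, Suv39h2, Ezh1, Ezh2, Kmt5a, Dot1l) and for the 5 genes with the largest called log2 difference and a mean of at least 50 in each comparison. Setd2 was added after its values were seen. Of each accompanying list, up to 4 genes with the smallest adjusted p could be named. The genes and lists were chosen with earlier results of these data known.

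The 20 alternatives were pseudocounts of 0.5 and 5, no filter, a mean of at least 50, TMM and total-count scaling, edgeR 4.0.16 (quasi-likelihood) and DESeq2 1.42.0 on the recovered reads, the replicate number as a block, and leaving out each library. On the recovered reads edgeR called 9583 genes at 200 µM and 9386 at 10 µM between MYC states, and between methionine levels 9718 (MYC high) and 7915 (MYC low), and 7757 in the interaction. The limma test on the deposited values called 9600, 9232, 9787, 7666 and 7798.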

Additional observations from a re-analysis of the deposited data

Results flagged for a closer look

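The methionine response of MYC high cells differed from that of MYC low cells for 23 of the 35 genes, by limma's interaction test adjusted over all tested genes, against 60.4% of all tested genes in either direction, so the total lies near that share. Values are the response in MYC high cells minus that in MYC low cells, on the log2 scale. For 20 of them the value was negative, against 29.4% of all tested genes, and for 3 it was positive, against 31.0%. The negative calls numbered 16 to 20 when 1 library at a time was left out. Of the 20 other settings, 13 lost the call of Ezh1, 12 that of Setd7, 9 that of Kmt2c, and 2 each those of Kmt2a and Prdm2. In DNA methylation this was Uhrf1 (-0.27). Among H3K9 genes it was Suv39h2 (-0.88) and Prdm2 (-0.28), and in PRC2 Ezh1 (-0.24), Ezh2 (-0.70) and Eed (-0.46). Among H3K4 genes it was Kmt2a (-0.33), Kmt2b (-0.28), Kmt2c (-0.18), Setd1b (-0.70) and Setd7 (-0.13). All H3K36 genes were negative: Setd2 (-0.56), Nsd1 (-0.26), Nsd2 (-0.27), Nsd3 (-0.28) and Ash1l (-0.67). Negative too were Kmt5a (-0.52), Kmt5b (-0.22), Smyd5 (-0.31) and Dot1l (-0.38). The value was positive for Ehmt2 (0.39), Kmt2e (0.30) and Kmt5c (0.58).

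Ezh2 and Kmt5a were called lower in MYC high cells and higher in MYC low cells, against 3.43% of all tested genes. The response was called in MYC low cells and not in MYC high cells for 4 genes. Dnmt1, Dot1l and Prdm2 were higher, against 4.45% of all tested genes, and Smyd2 was lower, against 4.98%. Of these 4, the interaction of Dnmt1 (-0.07, adjusted p = 0.318) and Smyd2 (0.08, adjusted p = 0.312) was not called. For 8 genes (Ash1l, Kmt2b, Nsd1, Nsd2, Setd1a, Setd2, Suv39h1, Uhrf1) the response was called in MYC high cells and not in MYC low cells. All 8 were lower, against 12.8% of all tested genes. No gene of the 35 was called higher in MYC high cells alone, against 13.0%. Of the 8, the interaction of Setd1a (-0.18, adjusted p = 0.19) and Suv39h1 (-0.19, adjusted p = 0.0592) was not called. These differences rest on 2 MYC high libraries at 200 µM. Groups held 2 or 3 libraries, too few to look for a single library far from its group.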

How the results depend on the processing

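Of 175 single-gene results, 126 were called. Dnmt3b, with a mean of 39.6, was not tested under the alternative with a mean of at least 50. Of the called results, 107 stayed past the threshold under every one of the 20 alternatives that tested them. The other 19 fell short of it under at least 1, the cause of which was not tested. These were the interactions of Ezh1 (under 13 alternatives), Setd7 (12), Kmt2c (9), Kmt2a (2) and Prdm2 (2); between methionine levels Suv39h2 (11), Eed (6), Kmt5b (1) and Prdm2 (1) in MYC low cells and Suv39h1 (1) in MYC high cells; between MYC states Ezh2 (8), Kmt2d (6), Setd1b (4), Kmt2c (2) and Uhrf1 (2) at 10 µM and Kmt2d (6), Kmt2a (5), Nsd3 (3) and Ehmt1 (2) at 200 µM. Of the 49 not called, 14 passed under at least 1 alternative. Of the called results 1 changed sign: Kmt2d between MYC states at 200 µM was -0.017 without MYC high 200 µM replicate 2 (range leaving out 1 library -0.017 to 0.361).

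Calls lost by leaving out 1 library had these adjusted p. For interactions: without MYC high 200 µM replicate 2, Prdm2 0.141, Ezh1 0.124, Kmt2a 0.0912, Kmt2c 0.275 and Setd7 0.174, and without replicate 3, Ezh1 0.0554; without MYC low 200 µM replicate 1, Setd7 0.0753, replicate 2, Ezh1 0.0764 and Setd7 0.0776, and replicate 3, Prdm2 0.0538, Ezh1 0.0748 and Kmt2c 0.0941. Without MYC high 10 µM replicate 1 it was Setd7 0.122, replicate 2 Ezh1 0.158 and Kmt2c 0.0912, and replicate 3 Ezh1 0.0624 and Kmt2c 0.0623. Without MYC low 10 µM replicate 2 it was Ezh1 0.121 and Setd7 0.111, and replicate 3 Ezh1 0.0612, Kmt2c 0.122 and Setd7 0.0637. Between MYC states at 200 µM, without MYC high replicate 2, Ehmt1 was at 0.0696 and Kmt2a at 0.483, without MYC high replicate 3 Nsd3 at 0.0527, without MYC low replicate 2 Kmt2d at 0.117, and without MYC low replicate 3 Kmt2a at 0.131, Kmt2d at 0.232 and Nsd3 at 0.0554. At 10 µM, without MYC high replicate 1, Ezh2 was at 0.0612, Kmt2c at 0.0706, Kmt2d at 0.273 and Setd1b at 0.137, without MYC high replicate 3 Ezh2 at 0.133, without MYC low replicate 1 Ezh2 at 0.204 and Kmt2d at 0.145, without MYC low replicate 2 Uhrf1 at 0.0503, Ezh2 at 0.102 and Kmt2d at 0.0606, and without MYC low replicate 3 Setd1b at 0.12. Between methionine levels, Suv39h1 in MYC high cells was at 0.208 without 200 µM replicate 3. In MYC low cells, Prdm2 (0.0804) and Kmt5b (0.109) were lost without 200 µM replicate 3, Eed without any of 4 libraries (0.054 to 0.102) and Suv39h2 without any of 7 (0.0522 to 0.252).

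Members called with at least a 1.5-fold change between MYC states at 10 µM numbered 8, but 5 under total-count scaling and 5 to 8 leaving out 1 library (5 without MYC low 10 µM replicate 2), and between methionine levels in MYC low cells 1, with 1 to 2 leaving out 1 library (2 without MYC low 10 µM replicate 2). No other count of the 35 moved by more than 1.5 times.

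In all, 19 results changed sign under at least 1 alternative, and no such value passed the threshold. Between MYC states at 200 µM, Kmt5b was -0.0043 (TMM), -0.079 (total counts) and -0.0059 (edgeR). At 10 µM, Smyd3 was 0.0030 (TMM), 0.0067 (edgeR) and 0.0046 (DESeq2), and with total counts Setdb1 was -0.0024, Setd1a -0.054 and Smyd2 -0.015. With total counts Setdb1 was 0.023 between methionine levels in MYC high cells and Suv39h1 0.0016 in MYC low cells. The Kmt2d interaction was 0.012 (TMM), 0.022 (total counts) and 0.010 (edgeR), and that of Suz12 -0.00058 (DESeq2).

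Ranges leaving out 1 library, between MYC states at 200 µM: Setdb1 -0.054 to 0.015, Smyd2 -0.094 to 0.020, Kmt5b -0.029 to 0.044. At 10 µM: Setdb2 -0.0068 to 0.135, Setd1a -0.056 to 0.098, Smyd3 -0.088 to 0.062. Between methionine levels in MYC high cells: Setdb1 -0.058 to 0.011, Setdb2 -0.239 to 0.040, Prdm2 -0.176 to 0.027, Smyd3 -0.038 to 0.112. In MYC low cells: Dnmt3b -0.179 to 0.135, Suv39h1 -0.072 to 0.040, Kmt2b -0.014 to 0.061. Interaction: Dnmt3a -0.058 to 0.076, Suz12 -0.052 to 0.060, Kmt2d -0.195 to 0.183.

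The replicate numbers share no source in the labels, and libraries with the same number did not deviate together (15 pairs, r -0.049 to 0.0257, against -0.0464 to 0.049 for other pairs). With the number as a block, 25 genes were higher and 5 lower with MYC at 200 µM, and the interactions of Dnmt3a (-0.0049) and Suz12 (-0.0050) changed sign. Dnmt3b, Setdb2 and Smyd3 had the lowest counts, which limits the precision of their differences.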
